A study of Arabidopsis thaliana with 8 samples.

Results

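A small set of Arabidopsis thaliana probes gave a signal on every leaf array and were listed at 0 on root arrays. The set was chosen from the deposited intensities as those probes that were above 0 on all 4 leaf arrays, at exactly 0 on 3 or 4 of the 4 root arrays, and annotated by the platform to 1 or more genes. Of the 3439 probes on the array, 1562 carried a gene name, and 7 met the rule. They named 14 of the 2293 genes named by any probe: 2 probes named 1 gene each, and 5 were shared by several similar genes, so that their signal cannot be assigned to any one of them. Because the contrast of leaf with root chose these probes, that contrast is described and not tested here.

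The plants were wild type, of the Columbia 0 ecotype, and no treatment or age is given in the labels. Total RNA of leaves was measured on 4 arrays and total RNA of root material on 4 arrays, and the labels do not say whether the arrays of a tissue came from separate plants. An intensity is a relative spot brightness between 0 and a ceiling at 100. In whole tissue, fewer cells of a type that makes a transcript and less transcript per cell cannot be told apart.

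Leaves and roots share most of their housekeeping transcripts, and the classic leaf-specific ones serve the photosynthetic machinery of the chloroplast. Root cells carry plastids too, but these are mostly non-green. Among the genes named here are nucleotide-sugar transporters of the Golgi, an oxidoreductase, repeat proteins that act as scaffolds for protein contacts, and enzymes that help proteins fold.

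The tissue labels were checked with leaf mesophyll and root markers. Of 11 leaf markers 4 had a probe, and of 11 root markers 0 had one, so the root label could be checked only through low leaf markers. LHB1B2, a chlorophyll-binding antenna protein, read between 19.3 and 25.1 on the leaf arrays and between 0.323 and 0.680 on the root arrays. PRK, a Calvin cycle enzyme, read at least 2.59 on each leaf array and at most 0.197 on each root array. Both RCA probes, shared with another gene, did not follow this pattern, with mean intensities of 0.192 and 0.00500 in leaf and 0.350 and 0.0201 in root. Arrays numbered 1 and 2 resembled each other more than arrays 3 and 4 of the same tissue: across all probes, leaf 1 and 2 correlated at r = 0.999, leaf 3 and 4 at 0.998, root 1 and 2 at 0.997 and root 3 and 4 at 0.996, while root 1 and root 3 correlated at 0.865. The labels do not say whether arrays within such a pair are independent.

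The pattern was rare. Among the 2154 probes above 0 on all leaf arrays, 13 were at 0 on 3 or 4 root arrays, or 0.604%; among those with a gene name it was 7 of 972, or 0.72%. The mirror pattern, above 0 on all root arrays and at 0 on 3 or 4 leaf arrays, was met by 184 of 2816 probes, or 6.53%, and by 83 of 1285 with a gene name, or 6.46%. Leaf arrays listed between 20.0% and 22.8% of all probes at 0 and root arrays between 12.8% and 15.1%, and the part of this in the imbalance was not tested. Most probes at 0 in root were at 0 in leaf as well. Of 441 probes at 0 on 3 or 4 root arrays, 293 were at 0 on 3 or 4 leaf arrays, 94 on 2 leaf arrays and 41 on 1.

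Most spots with a probe number divisible by 6 read 0. Of the 261 such probes, 82.0% were at 0 on 3 or 4 root arrays, against 7.14% of the others. None of the 7 probes had a number divisible by 6 (0 of 7). Only 22 probes with such numbers, with or without a gene name, were above 0 on all leaf arrays. The rule also asked for a gene name, so at most these 22 could have met it.

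The brightest of the 7 was the probe for AT2G27680, which encodes an oxidoreductase of the aldo-keto reductase type. It read 2.61, 2.16, 0.614 and 1.40 on leaf arrays 1 to 4 and 0.872, 0, 0 and 0 on root arrays 1 to 4. The leaf mean was 1.70 ± 0.879 (SD, n = 4 arrays). This was the 1 probe at which the tissues overlapped, since root array 1 read above leaf array 3. Leaf arrays 1 and 2 averaged 2.39 and leaf arrays 3 and 4 averaged 1.01. The description of AT2G27680 as silent in root thus holds for 3 of the 4 root arrays and goes against the other.

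The probe shared by AT1G06890 and AT2G30460 was nearly as bright and far steadier. Both genes encode nucleotide-sugar transporters that carry UDP-xylose into the Golgi, where xylose is built into cell wall polysaccharides. The probe read 1.84, 1.64, 1.43 and 1.56 on leaf arrays 1 to 4 and was listed at 0 on all 4 root arrays. The leaf mean was 1.62 ± 0.176 (SD, n = 4), a coefficient of variation of 10.9%. No other of the 7 probes combined a level above the leaf median with 0 on every root array. The means of this probe and of AT2G27680 ranked 296th and 285th from the brightest among the 2154 probes above 0 on all leaf arrays. The values do not say which of the 2 named genes gave the signal.

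AT1G07280 and AT2G29670, which encode proteins with tetratricopeptide repeats, shared a probe at a middling leaf level. It read 0.261, 0.361, 0.238 and 0.419 on leaf arrays 1 to 4. Root arrays 1 to 3 were listed at 0 and root array 4 read 0.00392, far below the lowest leaf array. The leaf mean was 0.320 ± 0.0849 (SD, n = 4), close to the median of 0.352 over all probes above 0 in leaf. In RefSeq's gene order for assembly TAIR10.1, 41 protein-coding genes separate AT1G06890 from AT1G07280 on chromosome 1, and 83 separate AT2G29670 from AT2G30460 on chromosome 2. Both spacings link this probe to that of AT1G06890 and AT2G30460, through the genes that each names, so they are not separate cases. They were the smallest spacings among the 23 pairs of named genes on the same chromosome, which ran up to 5769. No expected spacing was computed.

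The probe shared by AT5G25280, AT5G20370 and AT5G11090, which encode serine-rich proteins and all lie on chromosome 5, read 0.132, 0.293, 0.189 and 0.0813 on leaf arrays 1 to 4. Root array 3 read 0.00159 and the other root arrays were listed at 0. The leaf mean was 0.174 ± 0.0909 (SD, n = 4), and the tissues did not overlap.

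**Figure D1:**
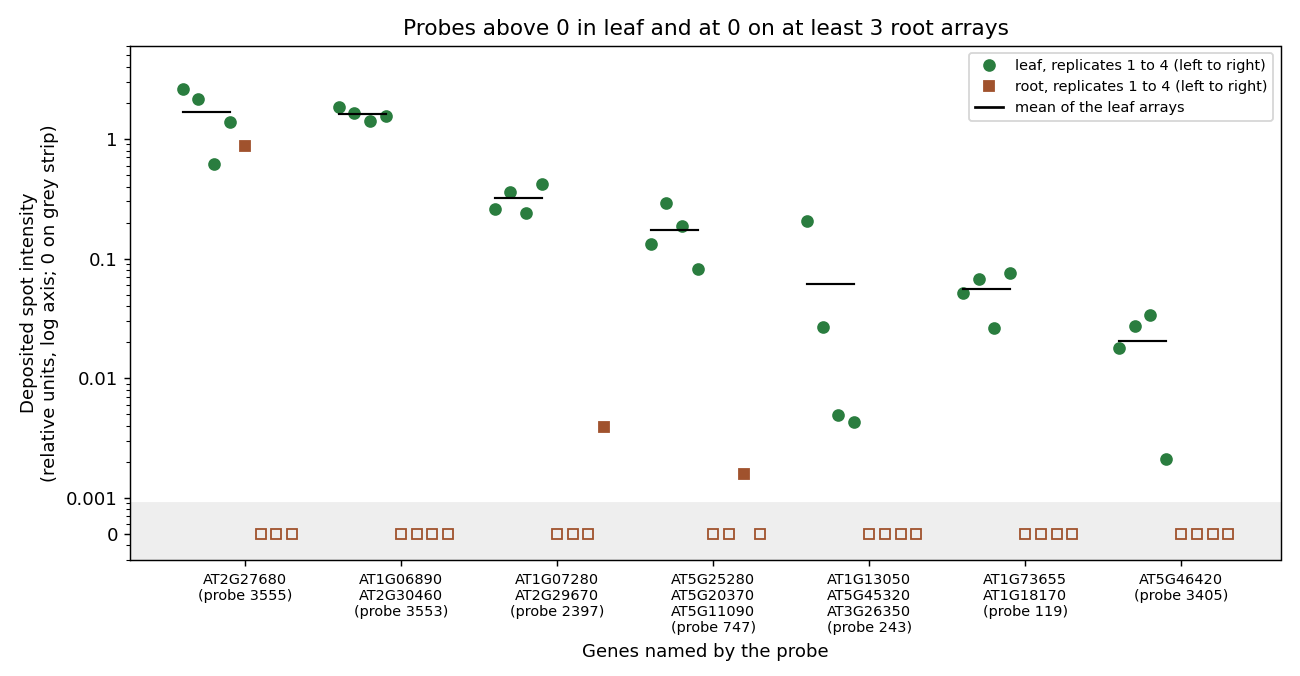
Deposited spot intensity (log axis, with values of 0 drawn as open symbols on the grey strip) of the 7 probes on 4 leaf arrays (green circles) and 4 root arrays (brown squares), with the leaf mean as a black line. AT2G27680 is the probe at which a root array lies above a leaf array, and the probe of AT1G13050, AT5G45320 and AT3G26350 has leaf array 1 far above the other leaf arrays.

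The 3 remaining probes were dim in leaf. The probe shared by AT1G73655 and AT1G18170 names a pair of peptidyl-prolyl isomerases of the FKBP type, enzymes that speed a slow step of protein folding; both are assigned to the chloroplast. It read 0.0517, 0.0677, 0.0261 and 0.0757 on leaf arrays 1 to 4, with a mean of 0.0553 ± 0.0219 (SD, n = 4), and was listed at 0 on every root array. Its mean ranked 2118th of 2154 in leaf.

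AT5G46420 encodes a protein related to RimM, which in the bacterium Escherichia coli helps mature the RNA of the small ribosomal subunit. Its probe read 0.0178, 0.0274, 0.0338 and 0.00210 on leaf arrays 1 to 4 and was at 0 on every root array. The leaf mean of 0.0203 ± 0.0138 (SD, n = 4) ranked 2153rd of 2154, so that AT5G46420 was nearly the dimmest probe counted as detected in leaf.

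The probe shared by AT1G13050, AT5G45320 and AT3G26350 owed its mean to 1 array. It read 0.207 on leaf array 1 and 0.0269, 0.00491 and 0.00428 on leaf arrays 2 to 4, and was at 0 on every root array. The leaf mean of 0.0607 ± 0.0979 (SD, n = 4) had an SD larger than itself, and without leaf array 1 it was 0.0120. No role is given here for these genes.

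As a group, 5 of the 7 probes lay below the median leaf level of the probes above 0 in leaf, and 2 lay above it. The median of their leaf means was 0.174, against 0.352 over all 2154 such probes and 0.321 over those with a gene name. When the 2154 probes were divided by leaf level into 4 groups of 538 or 539, 1.30% of the dimmest group were at 0 on 3 or 4 root arrays, and 0.372%, 0.186% and 0.557% of the next groups up to the brightest. These groups held 4, 1, 0 and 2 of the 7 probes. Their leaf values also varied more between arrays, with a median coefficient of variation of 51.8%, against 27.3% over all probes above 0 in leaf and 45.4% over those below the median level. For 6 of the 7 probes, leaf arrays 1 and 2 averaged above leaf arrays 3 and 4, the exception being the probe of AT1G07280 and AT2G29670; the same order held for 53.6% of all probes above 0 in leaf. The summed intensity was also higher on leaf arrays 1 and 2 (3400 and 3426) than on leaf arrays 3 and 4 (3021 and 3068). The median over all probes ran the other way. It was 0.150 and 0.153 on leaf arrays 1 and 2, and 0.170 and 0.176 on leaf arrays 3 and 4. The part of array brightness in the order of the 7 probes was not tested.

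**Figure D2:**
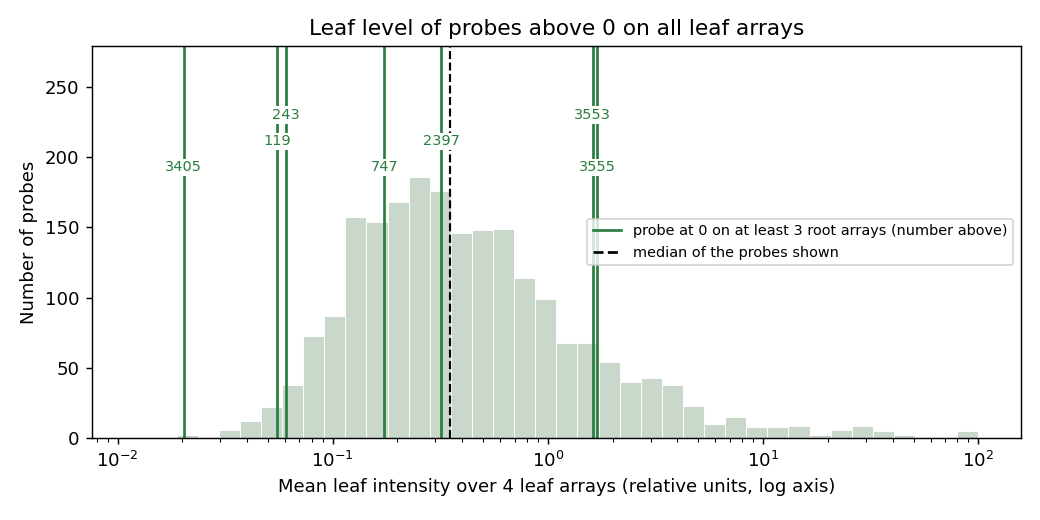
Histogram of the mean intensity over the 4 leaf arrays (log axis) for the 2154 probes above 0 on all of them, with the 7 probes at 0 in root marked by numbered green lines. Probes 3555 (AT2G27680) and 3553 (AT1G06890 and AT2G30460) lie at 1.70 and 1.62 in the upper part, and the other 5 lie below the dashed median at 0.352.

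What a value of 0 stands for, a spot not above background or one that was not read, is not given in the sources used here. To set a scale for the leaf values, the 5th percentile of the values above 0 lay between 0.0475 and 0.0575 on the root arrays. Every leaf array exceeded this level on all root arrays for 4 of the 7 probes: those of AT2G27680, of AT1G06890 and AT2G30460, of AT1G07280 and AT2G29670, and of AT5G25280, AT5G20370 and AT5G11090. The probe of AT1G73655 and AT1G18170 exceeded it on 2 leaf arrays, that of AT1G13050, AT5G45320 and AT3G26350 on 1, and AT5G46420 on 0. On the leaf arrays the same percentile was lower, between 0.0190 and 0.0233. The probe of AT1G73655 and AT1G18170 exceeded that on every leaf array. AT5G46420 did so on leaf arrays 2 and 3, and the probe of AT1G13050, AT5G45320 and AT3G26350 on leaf arrays 1 and 2. The share of all probes passing either level was not computed. Of the 28 root values of the 7 probes, 3 were above 0, and they fell on root arrays 1, 3 and 4.

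In the deposited values, every leaf array lay above every root array at 6 of the 7 probes, where 15% of all probes on the array showed this. In limma, a linear model with moderated variances fitted on log2 quantile-normalised intensities, the adjusted p (Benjamini-Hochberg) was below 0.05 with the higher level in leaf for 7 of the 7, where 22.1% of the 3298 probes tested were called so. Since the rule used the same contrast, nothing is read from either count. The probe of AT1G13050, AT5G45320 and AT3G26350 was not called without normalisation, with scaling by the median or the mean, or with a floor at the 5th percentile, and 6 of the 7 then remained. With means of arrays 1 and 2 and of arrays 3 and 4 in place of single arrays, neither that probe nor AT2G27680 was called, and 5 of the 7 remained.

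A further probe for the same genes was found for 1 of the 7. Probe 245 names AT5G25280 and AT5G11090, which are also named by probe 747 of the set. It read 0.270, 0, 0.201 and 0.232 on leaf arrays 1 to 4 and 1.40, 1.32, 0.755 and 0.687 on root arrays 1 to 4, with means of 0.176 ± 0.120 in leaf and 1.04 ± 0.373 in root (SD, n = 4 each). Every root array was above every leaf array, the opposite of probe 747. For these serine-rich protein genes the array therefore does not give a single answer on whether root holds the transcripts.

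**Figure D3:**
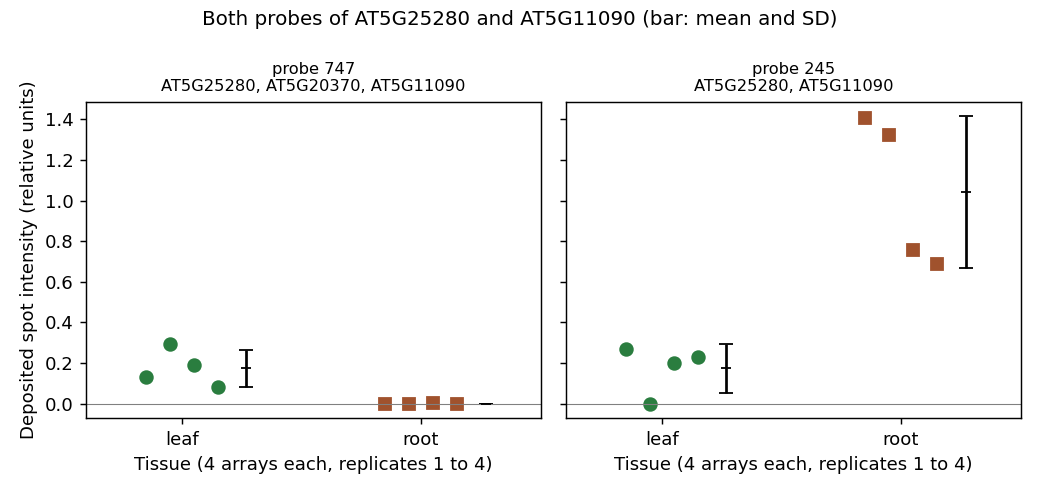
Deposited spot intensity in leaf (green circles) and root (brown squares) for probe 747 and probe 245, both of which name AT5G25280 and AT5G11090; black marks give the mean and SD of 4 arrays. Probe 747 lies at or near 0 in root, and probe 245 lies between 0.687 and 1.40 there.

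The brightest pair stood close together in the numbering of the probes. Probe 3553 is that of AT1G06890 and AT2G30460, and probe 3555 is that of AT2G27680. Between and beside them, probes 3554 and 3556 (the latter for AT2G21530) were at 0 on all 8 arrays, as were 132 probes or 3.84% of the whole array. Probe 3557, for AT2G27290, read 10.6, 9.82, 10.1 and 13.5 on leaf arrays 1 to 4, 0 on root arrays 1 and 2, and the ceiling of 100 on root arrays 3 and 4. It was the only probe on the array to hold both 0 and the ceiling within 1 tissue. Runs of 5 or more neighbouring entries at 0 occurred on leaf arrays 1, 3 and 4 and on root arrays 1, 2 and 3. Leaf array 1 held 4 of them, the longest of 7 entries. Root array 2 held 1, from probe 3553 to 3557, and on no other array did a run of that length cover this stretch. Root arrays 3 and 4 were also at 0 from probe 3553 to 3556, and the ceiling at probe 3557 ended these shorter runs. Root array 1 was at 0 at each entry of the stretch but probe 3555. Whether neighbouring numbers are neighbouring spots is not given in the sources used here, and the part of this stretch in the 0 values of the brightest pair was not tested. A probe listed at 0 on all 8 arrays lay within 2 numbers of 2 of the 7 probes, and of 11.5% of the probes above 0 in leaf. Without the pair, 5 probes remained, with a median leaf intensity of 0.0607, so that both levels above the leaf median came from this stretch.

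**Figure D4:**
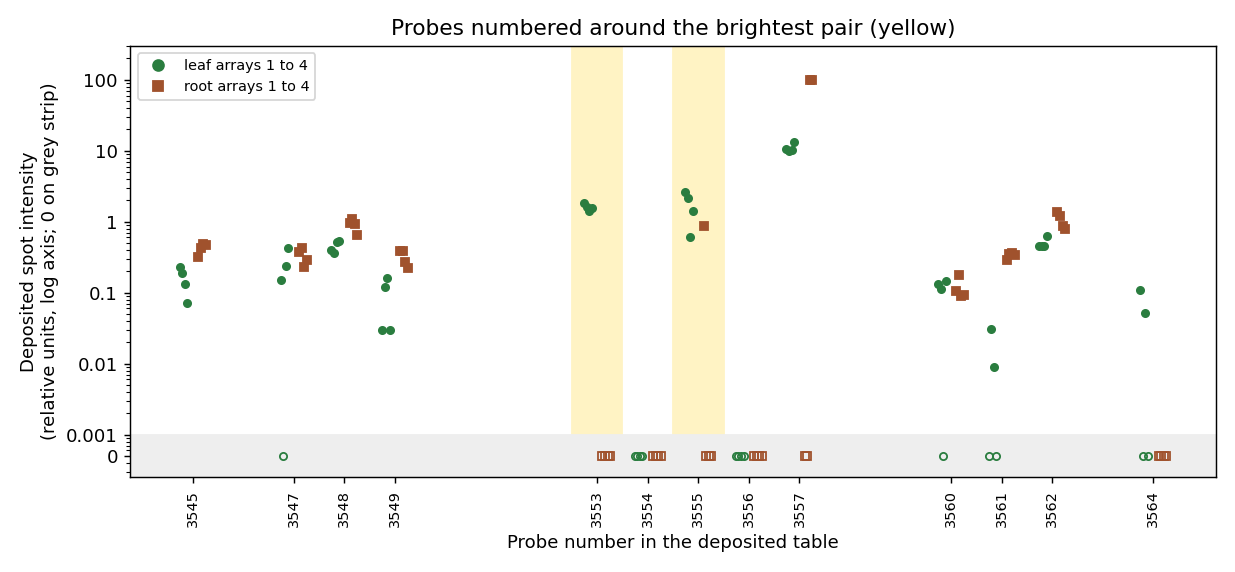
Deposited spot intensity (log axis, with values of 0 as open symbols on the grey strip) by probe number around probes 3553 and 3555 (yellow bands), with 4 leaf arrays (green circles) and 4 root arrays (brown squares) per probe. Probes 3554 and 3556 are at 0 on all arrays, and probe 3557 is at 0 on 2 root arrays and at 100 on the other 2.

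Just outside the rule were 10 annotated probes above 0 on all leaf arrays and at 0 on 2 root arrays. After AT2G27290, the brightest in leaf were the probe of TO2 and TO1, between 1.05 and 1.16 on the leaf arrays, and the probe of PWD and AT5G01260, between 0.928 and 1.12. PWD is an enzyme that phosphorylates starch during its breakdown. Both probes were at 0 on root arrays 1 and 2; TO2 and TO1 read 0.297 and 0.0620 on root arrays 3 and 4, and PWD and AT5G01260 read 0.0671 and 0.195. Next came AT1G64430 and AT1G53260, at 0.246 ± 0.0996 and 0.195 ± 0.0703 in leaf (SD, n = 4). AT1G64430 read 0.325 and 0.342 on root arrays 3 and 4, within its leaf range of 0.161 to 0.358. On the leaf side, 19 annotated probes at 0 on 3 or 4 root arrays missed the rule through a single leaf array at 0. Of these, 10 had numbers divisible by 6, as did 214 of all 441 probes at 0 on 3 or 4 root arrays. The highest leaf mean among the 19 was 0.115, at AT1G18440 (probe 3300, a number divisible by 6). That probe also read 1.77 on 1 root array, above its leaf maximum of 0.272. Some of the others likewise read higher on 1 root array than on any leaf array, and some were at 0 on all root arrays.

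Which root arrays read 0 followed the pairing of the arrays. Of the 19 probes above 0 on all leaf arrays and at 0 on 2 root arrays, 15 were at 0 on root arrays 1 and 2 and above 0 on root arrays 3 and 4, and 0 showed the reverse. With arrays 1 and 2 alone, 31 annotated probes were above 0 on both leaf arrays and at 0 on both root arrays; with arrays 3 and 4 alone there were 15. Of the 7 probes described here, 6 were among the 31 and 5 among the 15. Over all probes, root arrays 1 and 2 listed more at 0 (14.9% and 15.1%) than root arrays 3 and 4 (12.9% and 12.8%). Leaf arrays 1 and 2 also listed more at 0 (22.8% each) than leaf arrays 3 and 4 (20.0% each). The part of these shares in the counts of 31 and 15 was not tested.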

How the data were processed

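The series holds 8 arrays, 4 of leaf and 4 of root RNA, with groups and replicate numbers read from each title. Each deposited value is a spot intensity, linear and relative, 1 per probe and array; how the authors made it is not given in the sources used here. The number of arrays limits the precision. Gene names came from the platform annotation, and all 14 loci of the set matched RefSeq's gene table (TAIR10.1), used for names, chromosomes and gene order; no build is named for the values. Roles are background knowledge.

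Members and gene lists were chosen with earlier results of these data known. Named genes were every probe of the set, and the 5 brightest annotated probes with 2 root arrays at 0; probe 245, AT2G21530 and the stretch from 3553 to 3557 were singled out after their values were seen. Keyword classes and promoter motifs planned for the set were not run, as the tables used hold neither descriptions nor sequences.

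The rule was applied to the deposited intensities. For the background, intensities were quantile normalised, floored at 0.00582 (the 1st percentile of all values above 0), taken to log2 and fitted with limma 3.58.1 in R 4.3.3 (tissue only, two-sided, Benjamini-Hochberg over 3298 probes, threshold 0.05). The fit was tested on simulated data. That simulation drew independent noise for each array and shifted only probes above the median level. It therefore says nothing on differences at dim probes or on arrays that are alike in pairs. Alternatives were other scalings, floors and filters, a replicate block, leaving out each array, and other forms of the rule. Figures used matplotlib 3.10.9.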

Additional observations from a re-analysis of the deposited data

Results flagged for a closer look

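The 4 leaf values of each of the 7 probes were searched for an array far from the others; root values were not, since the rule itself leaves at most 1 of them above 0. Such a search picks about 1 in 20 groups by chance. The probe shared by AT1G13050, AT5G45320 and AT3G26350 was picked: leaf array 1 read 0.207 and the next highest leaf array 0.0269, a gap of 0.888 of the whole range, above Dixon's critical value for 4 samples.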

How the results depend on the processing

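The count of 7 probes was between 7 and 17 with any 1 array left out. Leaving out an array can only loosen the rule, so none of the 7 could drop out and the count could not fall. The largest counts came without leaf array 3 (13), leaf array 4 (14), root array 3 (16) or root array 4 (17). It was 4 when 0 on all 4 root arrays was required, 2 when exactly 1 gene had to be named, and, in alternatives chosen after seeing the data, 31 with arrays 1 and 2 alone and 15 with arrays 3 and 4 alone. Counting values below the 1st or the 5th percentile of the positive values as 0 gave 5 and 6 probes, of which 5 and 4 were among the 7. The median leaf intensity of 0.174 ran from 0.134 to 0.204 with 1 leaf array left out, was 0.235 after quantile normalisation, and fell to 0.0607 without the probes near an entry at 0 on all arrays (chosen after seeing the data). Quantile normalisation raised the mean leaf intensity of AT5G46420 from 0.0203 to 0.0642 and that of AT1G73655 and AT1G18170 from 0.0553 to 0.104.

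Over all probes, limma called 729 higher in leaf, 656 to 672 with 1 array left out, and 370 with arrays 1 and 2 and arrays 3 and 4 averaged (chosen after seeing the data), where fewer samples entered. Leaf took 52.3% of the calls, but 30.2% on the deposited intensities. Of the 7 probes, 7 were called in every fit with 1 array left out; without the dimmest 25% of probes 2 were called, the other 5 not being tested. With the replicate number as a block, 648 probes and 7 of the 7 were called. Same-numbered leaf and root arrays deviated together at r = 0.0900 to 0.126, and each correlated best with its own number, a hint from the data that the labels do not state. Intensities of 0 limit every statement on root, since the sources used here do not say what a 0 stands for.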

Other observations

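Among probes without a gene name, 6 showed the same pattern in leaf and root. The brightest, probe 3532, read 1.66, 1.86, 1.70 and 1.28 on leaf arrays 1 to 4 and was at 0 on all 4 root arrays, a level in leaf like that of AT1G06890 and AT2G30460 (1.63 ± 0.246 against 1.62 ± 0.176, SD, n = 4). Its number is close to theirs, but outside the stretch from 3553 to 3557. Probe 277 read between 0.273 and 0.471 in leaf and 0.0106 on root array 4, and the other 4 had leaf means between 0.0525 and 0.203.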
